A study of Mus musculus with 18 samples.

Results

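The nuclear genes for the subunits of oxidative phosphorylation were followed in the ileum of C57BL/6 mice from suckling to after weaning. Members were chosen by symbol: Nduf genes for complex I, Sdh for complex II, Uqcr for complex III, Cox for complex IV and Atp5 for complex V. The rule found 81 genes among 18194 with a probe set of 1 symbol, of which 35 belong to complex I, 4 to complex II, 8 to complex III, 17 to complex IV and 17 to complex V. Each gene was read from its probe set with the highest mean over all arrays. The rule used names and mean level and no difference between ages. A gene was tested where that probe set reached a log2 level of 6 on at least 3 arrays, which 73 members did: 32, 4, 8, 12 and 17 for complexes I to V. Counts below are over those 73, each of which reached that level on at least 1 array before and 1 after weaning.

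The members without a test were Ndufa4l2, Ndufb1, Ndufb4, Cox4i2, Cox6a2, Cox7b2, Cox7c and Cox8b. Their log2 levels lay from 2.10 (Cox7b2) to 5.93 (Cox8b), while the median over all probe sets of an array was 3.88 to 3.97. A further 7 symbols of the rule, Ndufa11, Ndufa11b, Ndufb4b, Ndufb4c, Ndufs5-ps, Ndufs6 and Ndufs6b, occurred only in annotations with several symbols and were left out.

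Oxidative phosphorylation takes place in the inner mitochondrial membrane. Complexes I and II pass electrons from NADH and succinate to ubiquinone, complex III hands them on through cytochrome c, and complex IV gives them to oxygen. Complexes I, III and IV pump protons, whose return through complex V, the ATP synthase, makes ATP. The genes measured here are those of the cell nucleus. In the intestine, absorptive cells use this ATP for ion and nutrient transport. Several complex IV subunits exist as paralogues, of which one is found in most tissues and the other mainly in muscle, lung or testis.

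The study sampled full-thickness ileum on postnatal days 4, 7, 9, 11, 24 and 32, with 3 individual mice at each age and 18 Affymetrix arrays in all. In the titles 1 animal number stands for both a day 7 and a day 9 array, which were kept as separate mice by their ages and correlated at 0.992 (0.991 to 0.996 for the other 8 pairs of these ages). All mice were of the same inbred strain with no treatment named in the labels. The labels do not give the day of weaning. Days 4 to 11 (12 arrays) were taken as before weaning and days 24 and 32 (6 arrays) as after it, from general knowledge of laboratory mice. Levels are RMA values on the log2 scale, so a difference of 1 is a doubling, and the level of one probe set is never set against that of another.

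Within an age the arrays correlated at 0.983 or more, and the median SD of a member within an age was 0.13. The ileal enterocyte list rose from a mean level of 8.41 to 9.11 before weaning to 10.34 to 10.89 after it, with Fabp6, the ileal bile acid binding protein, at 12.90 to 13.28 after weaning. Control probe sets for 18S RNA read 4.93 to 8.19 before weaning, 10.26 to 10.85 on day 24 and 7.01 to 7.96 on day 32. Poly-A control probe sets read 3.53 to 4.51 before and 4.98 to 6.37 after weaning. The level of the hybridization controls parted the arrays into a lower group of 8, all before weaning, and a higher group with all 6 after and 4 before weaning. Xist, a transcript of the inactive X chromosome, was low, as in males, on 3 of the 12 earlier arrays and on 5 of the 6 later ones. Because the tissue was measured in bulk, fewer cells of a type and less RNA per cell cannot be told apart.

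The subunits as a group shifted little across weaning. Of the 73 members, 32 were higher and 12 lower on days 24 and 32 than on days 4 to 11, and 29 had no call (limma, Benjamini-Hochberg adjusted p below 0.05 over 8622 genes). Over all genes tested, 31% were higher and 41.8% lower, against 43.8% and 16.4% of the members. The median log2 difference was 0.13 over the members (0.09 without day 24 replicate 3) and -0.07 over all genes. Changes were small: 5 of the 44 called members differed by at least 1.5-fold, against 51.1% of all called genes, and the median was 1.2-fold for those higher and 1.27-fold for those lower. An F test over the 6 ages called 37 members (50.7%), where 68.3% of all genes were called.

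By complex, the counts of members higher and lower were 9 and 9 of 32 for complex I, 3 and 0 of 4 for complex II, 2 and 0 of 8 for complex III, 6 and 2 of 12 for complex IV, and 12 and 1 of 17 for complex V. At an unadjusted p below 0.05 in the same limma fit, the numbers lower in complexes II and III were also 0. The median log2 difference was -0.02 for complex I, 0.21 for complex II, 0.13 for complex III, 0.14 for complex IV and 0.23 for complex V. The complex I median took either sign under other settings, from -0.08 to 0.07, and the other 4 medians stayed above 0 under each setting tried. That of complex III was 0.07 without day 24 replicate 3 and ranged from 0.04 to 0.34 over all settings. With the 18S control level as a covariate 13 members rose in place of 32 and 8 fell in place of 12. Over all 8622 genes 2121 then rose and 2145 fell, in place of 2676 and 3608. The share of members that rose was thus below that of all genes. The members' median was then 0.19 and that of all genes 0.01. The members' median less that of all genes was 0.19 with the covariate and 0.21 without it. In the arrays of the higher hybridization group alone 24 members rose, and 2358 of all genes. With the Xist level as a covariate 24 members rose as well, and 2253 of all genes.

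**Figure D1:**
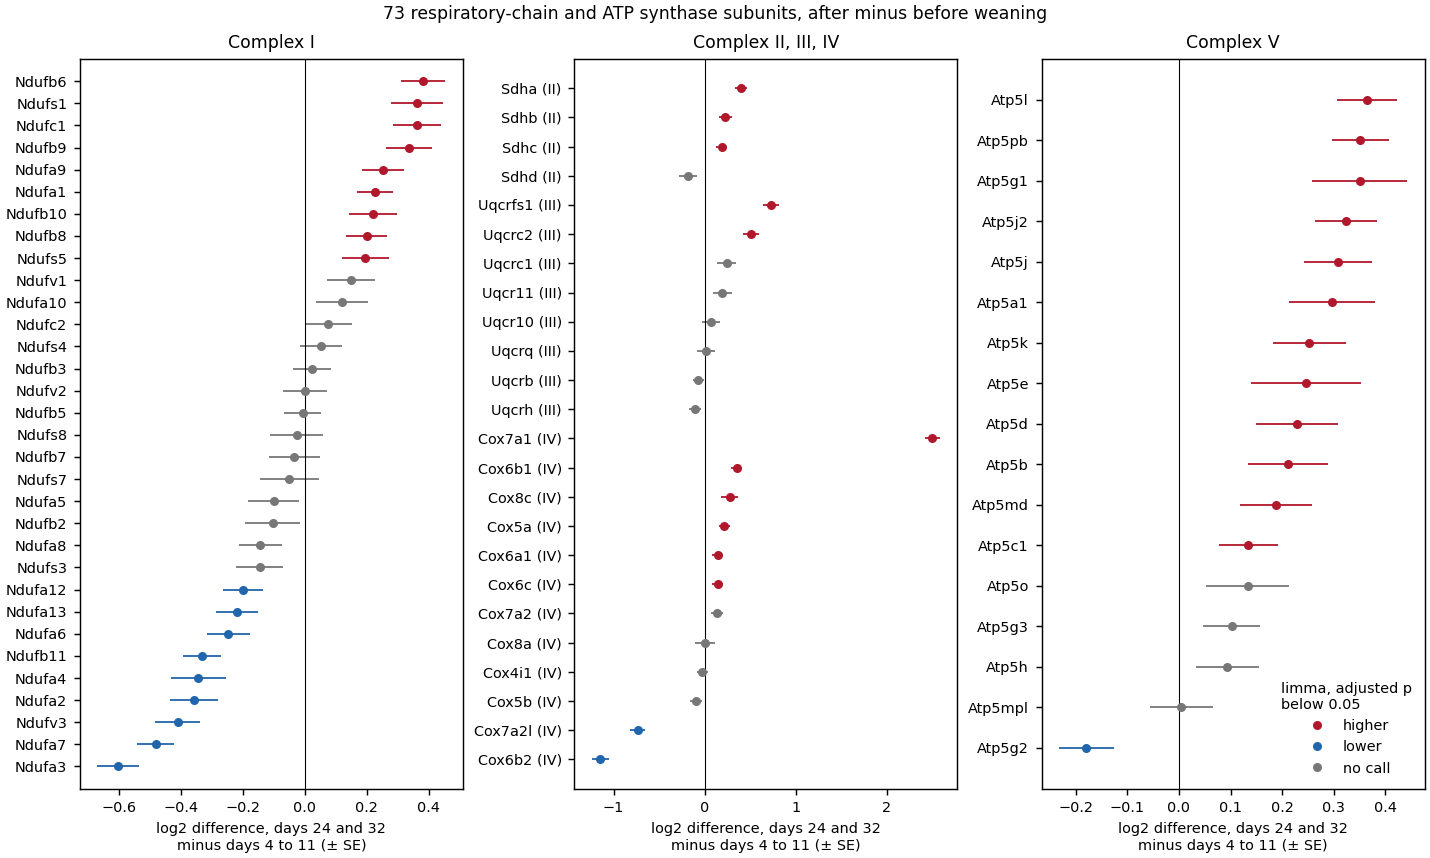
Log2 difference of each of the 73 tested subunits between days 24 and 32 and days 4 to 11 (x axis, ± standard error), with genes sorted within complexes I to V on the y axis and the x range differing between panels. Red and blue points passed limma's test as higher and lower and grey points did not; complex I is spread evenly around 0, complex V lies mostly to the right, and Cox7a1 at 2.50 and Cox6b2 at -1.15 lie farthest out.

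On a count of arrays, 5 members had all 6 arrays after weaning above all 12 before it, namely Uqcrfs1, Uqcrc2, Cox7a1, Atp5l and Atp5pb. The same held for 15.4% of all genes tested. The reverse, with all arrays after weaning below those before it, held for Ndufa3, Ndufa7, Cox6b2 and Cox7a2l, and for 21.7% of all genes. The other 64 tested members overlapped between the stages.

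Complex V, the ATP synthase, had the most members higher after weaning. In the catalytic F1 head, all 5 subunits rose: Atp5a1 (subunit alpha, 0.30 ± 0.08 SE, adjusted p = 0.00383), Atp5b (beta, 0.21 ± 0.08, 0.0207), Atp5c1 (gamma, 0.13 ± 0.06, 0.0432), Atp5d (delta, 0.23 ± 0.08, 0.0155) and Atp5e (epsilon, 0.25 ± 0.11, 0.047). The calls of Atp5c1 and Atp5e were lost under 17 and 16 of 32 alternative settings.

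Among the parts that hold the head to the membrane, Atp5l and Atp5pb changed most. Atp5l, subunit g, had log2 levels from 10.07 through a median of 10.21 to 10.32 on the 12 arrays before weaning. After weaning it read 10.46, 10.68 and 10.66 on day 24 and 10.44, 10.49 and 10.59 on day 32. The groups did not overlap, and the difference was 0.37 ± 0.06, or 1.29-fold (adjusted p = 1.78e-05). Atp5pb, subunit b of the peripheral stalk, ran from 10.88 through 11.08 to 11.23 before weaning and from 11.36 through 11.44 to 11.52 after it. It too showed no overlap, at 0.35 ± 0.06 or 1.28-fold (adjusted p = 1.64e-05). Of the other stalk subunits Atp5j rose by 0.31 ± 0.07, while Atp5o at 0.13 and Atp5h at 0.09 had no call. Atp5j2, Atp5k and Atp5md, small membrane subunits, rose by 0.32, 0.25 and 0.19, and Atp5mpl was at 0.00 (adjusted p = 0.948).

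The c subunit, whose ring turns as protons pass, is encoded by Atp5g1, Atp5g2 and Atp5g3, which give the same mature protein. Atp5g1 rose by 0.35 ± 0.09 (adjusted p = 0.00228) and Atp5g2 fell by 0.18 (± 0.05 SE, adjusted p = 0.0055), the only ATP synthase member that fell. Atp5g3 differed by 0.10 ± 0.05 with no call (adjusted p = 0.102). Within each array, the log2 ratio of Atp5g1 to Atp5g2 rose by 0.53 after weaning (exact permutation test, two-sided, 6 against 12 arrays, p = 0.000162, 0.000269 adjusted over the 10 pairs compared). Against the mean before weaning, the highest earlier array lay at 0.31 and the lowest later one at 0.28, so that the stages overlapped slightly.

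Since the 3 genes give the same mature protein but did not change alike, the sequence before each start is shown. The 150 bases before each RefSeq start on GRCm38.p6 are given 5′ to 3′ for Atp5g1 (chr11:96075632-96075781), Atp5g2 (chr15:102671048-102671197) and Atp5g3 (chr2:73911327-73911476), all on the minus strand. The Atp5g3 window lies inside its gene record (chr2:73908447-73912464), so that the start used is internal to the recorded gene. The Atp5g1 window overlaps its gene record, which ends at 96075694. Capitals mark matches to the motifs searched, which are described further on.
Atp5g1: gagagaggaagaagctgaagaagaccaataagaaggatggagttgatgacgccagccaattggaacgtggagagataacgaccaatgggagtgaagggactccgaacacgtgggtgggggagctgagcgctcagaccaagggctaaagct
Atp5g2: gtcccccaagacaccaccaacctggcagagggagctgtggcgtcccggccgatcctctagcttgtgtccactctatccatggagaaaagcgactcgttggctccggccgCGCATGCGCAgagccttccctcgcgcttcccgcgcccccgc
Atp5g3: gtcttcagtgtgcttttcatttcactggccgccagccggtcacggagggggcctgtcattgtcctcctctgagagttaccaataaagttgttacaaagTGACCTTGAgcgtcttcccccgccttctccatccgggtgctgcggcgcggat
The Atp5g2 window held the NRF1 core and, overlapping it, the short NRF1 form, 41 and 37 bases before the start. The Atp5g3 window held the ERRA motif on the other strand, 52 bases before the start, and the Atp5g1 window held none of the motifs searched.

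Complex I divided evenly, with 9 members higher and 9 lower. Of its 6 tested core subunits, which carry the flavin and iron-sulphur centres, Ndufs1 rose and the others (Ndufs3, Ndufs7, Ndufs8, Ndufv1 and Ndufv2) had no call. The accessory subunits, which stabilise the complex, gave 8 higher and 9 lower of 26. Ndufs1, the largest core subunit, ran from 8.26 through 8.55 to 8.79 before weaning. It read 8.71, 8.94 and 8.52 on day 24 and 8.96, 9.08 and 9.04 on day 32, so that day 24 still overlapped the younger mice and day 32 lay above them. Its difference was 0.36 ± 0.08 (adjusted p = 0.000827).

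The accessory members that rose most were Ndufb6 (0.38 ± 0.07, adjusted p = 0.000121), Ndufc1 (0.36 ± 0.08, 0.00039) and Ndufb9 (0.34 ± 0.07, 0.000467), all of the membrane arm. Ndufa9, Ndufa1, Ndufb10, Ndufb8 and Ndufs5 rose by 0.20 to 0.25. Other probe sets of 2 of these genes gave smaller values with no call, 0.05 for Ndufc1 and 0.10 for Ndufb9.

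The members that fell were, but for Ndufv3 and Ndufb11, Ndufa genes. Ndufa3, a small membrane subunit, ran from 11.35 through 11.50 to 11.66 before weaning and read 11.02, 11.05 and 11.10 on day 24 and 10.70, 10.63 and 10.88 on day 32. The stages did not overlap and day 32 lay below day 24, although that step alone had no call (adjusted p = 0.0646). The fall across the stages was 1.52-fold (log2 difference -0.60 ± 0.07, adjusted p = 1.85e-07), and a second probe set gave -0.62. Ndufa7 ran from 10.11 through 10.15 to 10.32 before weaning and from 9.52 through 9.74 to 9.92 after it, a 1.4-fold fall (-0.48 ± 0.06, adjusted p = 7.69e-07), and all 5 of its probe sets were lower with a call. Ndufv3, a small subunit of the matrix arm, fell by 0.41 (± 0.07 SE, adjusted p = 5.58e-05). Ndufa2, Ndufa4, Ndufb11, Ndufa6, Ndufa13 and Ndufa12 had differences of -0.36, -0.34, -0.33, -0.25, -0.22 and -0.20. Other probe sets of Ndufa12 gave -0.15 with a call and -0.04 with no call. The calls of Ndufa12 and Ndufa6 were lost in the higher hybridization group alone and with the 18S level as a covariate.

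Ndufa4 was placed with complex I by its symbol, although the protein is now known as part of complex IV. Its call was lost with the hybridization group as a block and in the higher group alone, and with the 18S level as a covariate the difference was 0.00. Ndufa1 and Ndufb11 are X-linked, and the share of arrays with low Xist differed between the stages. With the Xist level as a covariate Ndufa1 was at 0.25 (adjusted p = 0.0108) and Ndufb11 at -0.31 (adjusted p = 0.00324).

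In complex II, succinate dehydrogenase, which also works in the tricarboxylic acid cycle, 3 of 4 subunits rose. Sdha, the flavoprotein, ran from 10.09 through 10.26 to 10.48 before weaning. It read 10.45, 10.72 and 10.55 on day 24 and 10.71, 10.88 and 10.69 on day 32, so that only the lowest array of day 24 fell within the earlier range. The difference was 0.40 ± 0.07, or 1.32-fold (adjusted p = 4.1e-05). Sdhb, the iron-sulphur subunit, rose by 0.23 ± 0.07 (0.00762) and Sdhc, a membrane anchor, by 0.19 ± 0.06 (0.00924). Sdhd, the other anchor, was at -0.18 ± 0.09 with no call (0.0922).

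Complex III had 2 members that rose. Uqcrfs1, the Rieske iron-sulphur protein, ran from 9.13 through 9.53 to 9.63 before weaning and read 9.91, 10.36 and 10.22 on day 24 and 10.04, 10.29 and 10.60 on day 32. All arrays after weaning were above those before it, and the difference was 0.73 ± 0.09, or 1.66-fold (adjusted p = 6.3e-07). Uqcrc2, a core protein that faces the matrix, ran from 10.14 through 10.46 to 10.85 before weaning and read 10.89, 11.03 and 11.19 on day 24 and 10.86, 10.96 and 10.91 on day 32. The gap between its stages was narrow, with 10.85 below and 10.86 above, and its difference was 0.51 ± 0.09, or 1.42-fold (adjusted p = 5.27e-05).

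The other 6 had no call: Uqcrc1 at 0.24 (adjusted p = 0.0536), Uqcr11 at 0.20, Uqcr10 at 0.07, Uqcrq at 0.01, Uqcrb at -0.07 and Uqcrh at -0.10. Other probe sets of Uqcr10 (0.66 and 0.31) and Uqcrb (0.42) were higher with a call, and a second one of Uqcrh was lower with a call, at -0.21. For Uqcrb the mean of its probe sets was 0.18 and passed the test.

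Complex IV, cytochrome c oxidase, held the largest change of all members, in an isoform. Cox7a1 is the form of subunit 7a found mainly in heart and skeletal muscle. It ran from 5.42 through 5.81 to 6.19 before weaning and read 8.76, 8.57 and 8.80 on day 24 and 7.86, 7.78 and 8.35 on day 32. The stages were far apart, with no overlap, and day 24 lay above day 32. The difference was 2.50 ± 0.08, or 5.65-fold (adjusted p = 7.09e-15), but 8 of the 12 earlier arrays lay below log2 6, so that the earlier level may lie close to background. Cox7a2, the form found in most tissues, was at 0.14 ± 0.06 with no call (adjusted p = 0.0598), though a second probe set of it gave 0.42 with a call.

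Cox6b2, known as the testis form of subunit 6b, went the other way. It read 7.49, 7.97 and 7.87 on day 4, 7.74, 7.81 and 7.68 on day 7, 7.38, 7.57 and 7.52 on day 9 and 7.26, 7.25 and 7.20 on day 11. After weaning it read 6.32, 6.06 and 6.71 on day 24 and 6.23, 6.61 and 6.57 on day 32. All 6 later arrays lay below the 12 earlier ones. The fall was 2.21-fold (-1.15 ± 0.09, adjusted p = 3.15e-09), while Cox6b1, the form found in most tissues, rose by 0.35 ± 0.06 (adjusted p = 2.75e-05).

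Cox7a2l, a protein related to Cox7a2, fell 1.66-fold (-0.73 ± 0.08, adjusted p = 1.58e-07). It ran from 10.56 through 10.81 to 11.03 before weaning and read 10.31, 10.11 and 10.50 on day 24 and 9.81, 9.82 and 9.96 on day 32, with no overlap. Its other 2 probe sets gave -0.76 and -0.56, both with a call.

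Of the remaining complex IV members, Cox8c (0.27 ± 0.09), Cox5a (0.22 ± 0.06), Cox6a1 (0.14 ± 0.06) and Cox6c (0.14 ± 0.06) rose. Adjusted p-values were 0.0118, 0.00414, 0.0455 and 0.0469, and the calls of Cox6a1 and Cox6c were lost under 22 and 17 of 32 alternatives. Cox8c read only 5.81 to 6.47 on the 18 arrays, around the filter of log2 6, so that its level may lie close to background. Cox4i1, the common form of a regulatory subunit, was at -0.03 (adjusted p = 0.705), Cox8a at 0.01 (0.956) and Cox5b at -0.10 (0.191). The value of Cox8a depended on the setting and ranged from -0.08 to 0.54. That of Cox4i1 ranged from -0.05 to 0.07 and that of Cox5b from -0.16 to 0.01. Cox4i1 read between 11.82 and 12.08 on all 18 arrays.

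**Figure D2:**
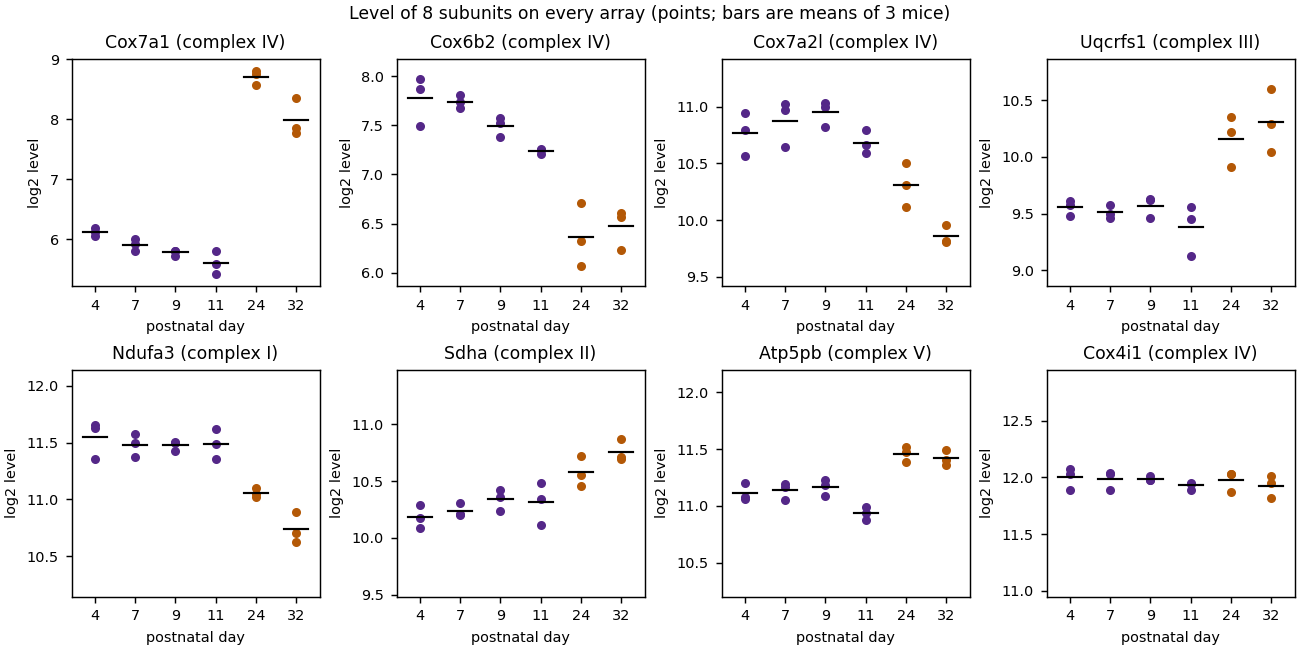
Log2 level (y axis, with a span of at least 2 units in each panel) of 8 subunits on each array by postnatal day (x axis, ages evenly spaced), purple before and orange after weaning, with bars at the mean of 3 mice. Cox7a1 steps up and Cox6b2, Cox7a2l and Ndufa3 step down between day 11 and day 24, Uqcrfs1, Sdha and Atp5pb rise by less, and Cox4i1 lies at 11.82 to 12.08 throughout.

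Paralogues of a subunit were compared within each array as a log2 ratio. This removes a shift that is equal in both probe sets of an array, but not one that differs between them. Of 10 pairs, 8 changed after weaning in an exact two-sided permutation test of 6 against 12 arrays, adjusted over the pairs. Pairs that share Cox7a2 or an Atp5g gene are not independent of each other, so the 8 are not separate results. Cox7a1 over Cox7a2 rose by 2.36 (log2), Cox6b2 over Cox6b1 fell 2.82-fold and Cox7a2l over Cox7a2 fell by 0.87, each with no overlap and with p = 5.39e-05, the smallest that the permutations can give (adjusted p = 0.00018). Atp5g1 over Atp5g3 rose by 0.25 (exact p = 0.00485, adjusted 0.00606) and Atp5g2 over Atp5g3 fell by 0.28 (p = 0.000108, adjusted 0.000215).

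In 4 pairs the first gene was too dim to be tested by itself, so that its part of the ratio may be background. Cox8b, the muscle form of subunit 8, over Cox8a rose by 1.19 (exact p = 0.000108, adjusted 0.000215), with Cox8b at 3.66 to 4.27 before and 4.73 to 5.93 after weaning. Cox4i2, the form known from lung, over Cox4i1 rose by 0.21 (adjusted p = 0.001). Ndufa4l2 over Ndufa4, at 0.19, and Cox6a2, another muscle form, over Cox6a1, at -0.03, had no call (adjusted p = 0.115 and 0.799). Among the pairs with both genes tested, ratios of complex IV isoforms changed in both directions.

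**Figure D3:**
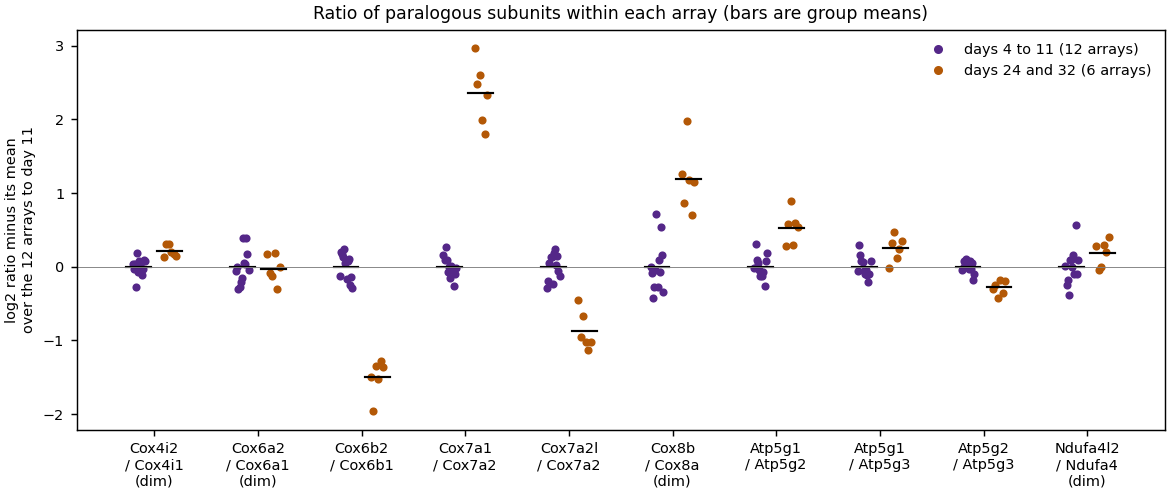
Log2 ratio of 2 paralogues within each array, minus its mean over the 12 arrays to day 11 (y axis), for the 10 pairs on the x axis, with purple points before and orange points after weaning and bars at the group means. Pairs marked dim hold a gene below the filter; Cox7a1 over Cox7a2 is higher by 2.36, Cox6b2 over Cox6b1 2.82-fold lower and Cox7a2l over Cox7a2 lower by 0.87 after weaning, with no overlap.

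Markers of cell types that could carry these isoforms were read beside them. Of the striated muscle list, 15 of 16 genes stayed below the filter, and its mean level was 3.46 to 3.72 before and 3.70 to 3.89 after weaning. The 1 tested gene, Acta1, rose from 5.41 to 6.09 before weaning to 6.78 to 8.83 after it. Of the smooth muscle list 2 rose and 2 fell of 9, with a median log2 difference of 0.03. All 5 brown adipocyte markers measured stayed below the filter, Ucp1 at 2.71 to 3.55 before and 2.73 to 3.04 after weaning and Cidea at 3.45 to 4.19 and 3.33 to 3.98. Of the 4 white adipocyte markers that reached the filter in both stages, 3 were higher and 1 lower, at -1.33. Retn reached it only after weaning and is left out of that count. The mean level of the whole list was 4.95 to 6.83 before weaning, of which day 11 had 6.08 to 6.83. It was 6.91 to 7.76 on day 24 and 7.85 to 8.10 on day 32. Adipoq, made by fat cells, read 2.28 to 6.02 before and 7.17 to 9.40 after weaning. The part of these cells in the isoform changes was not tested.

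The epithelium list gave 11 higher and 3 lower of 15, with a median of 0.59 and an array mean of 10.28 to 10.43 before and 10.98 to 11.27 after weaning. The fibroblast and matrix list gave 9 lower of 9, with a median of -1.18 and an array mean of 9.89 to 10.47 before and 8.79 to 9.40 after. A further 4 lists held genes that reached the filter in 1 stage only, so their levels are given without calls. The mean of the B and plasma cell list was 3.82 to 4.07 before and 6.43 to 9.90 after weaning, and that of the T cell list 3.89 to 4.16 and 4.34 to 6.55. The enteric neuron and glia list read 5.59 to 5.90 and 4.81 to 5.11, and the endothelium list 5.76 to 6.27 and 4.82 to 5.06. Whether the change in the make-up of the tissue contributed to the subunit changes was not tested.

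Between neighbouring stages, most differences of the members were negative from day 4 to day 11, positive from day 11 to day 24 and negative again from day 24 to day 32, with calls mainly in the middle step. From day 4 to day 11, 70 of the 73 members had a negative difference, with a median of -0.20, where 55.2% of all genes were negative with a median of -0.03. Their differences were small beside the spread: 0 members were higher and 1, Cox7a1, was lower (-0.52 ± 0.14, adjusted p = 0.0495, limma), against 1.35% and 1.54% of all genes. At an unadjusted p below 0.05 the counts were 0 and 26, or 35.6% of the members lower against 10.6% of all genes. The members' median stayed below 0 under each of the scalings tried, from -0.22 to -0.15. The call of Cox7a1 was lost in 10 of the 18 fits that left out 1 array.

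From day 11 to day 24, 34 members rose and 4 fell, with a median of 0.26, while 26.8% of all genes rose and 32.3% fell with a median of -0.04. By complex the counts higher and lower were 11 and 2 of 32 (I), 2 and 0 of 4 (II), 4 and 0 of 8 (III), 5 and 2 of 12 (IV) and 12 and 0 of 17 (V). The medians were 0.20, 0.29, 0.39, 0.22 and 0.38. At an unadjusted p below 0.05 the numbers lower in complexes II, III and V were again 0.

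The largest rises in this step were Cox7a1 (3.11 ± 0.14, 8.62-fold, adjusted p = 1.53e-12), Uqcrfs1 (0.78 ± 0.14, 0.000156), Uqcrc2 (0.70 ± 0.15, 0.000474), Ndufc1 (0.67 ± 0.13, 0.00018), Ndufb6 (0.60 ± 0.12, 0.000264), Ndufb9 (0.59 ± 0.12, 0.000348) and Atp5e (0.59 ± 0.18, 0.00754). Atp5j and Atp5j2 rose by 0.55 each and Cox6b1 and Cox5a by 0.51 and 0.50. Those that fell were Cox6b2 (-0.88 ± 0.15, adjusted p = 8.71e-05), Ndufa3 (-0.43 ± 0.11, 0.00232), Cox7a2l (-0.37 ± 0.13, 0.0201) and Ndufa7 (-0.35 ± 0.10, 0.00417). Of the 38 called members 8 differed by at least 1.5-fold, against 64.6% of all called genes.

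This step rested partly on single arrays. The medians of complexes I, III, IV and V were highest on day 24 replicate 3, at 0.28, 0.40, 0.23 and 0.43 above the mean before weaning. Those of complexes II, III, IV and V were lowest on day 11 replicate 1, at -0.32, -0.37, -0.19 and -0.15. Without day 24 replicate 3 the count that rose was 23 and the complex I median 0.09. Without day 11 replicate 1 the count was 24 and the complex III median 0.22, and without both arrays the count was 19. Day 24 replicate 3 also had the highest difference between the 3′ and 5′ actin controls, at 1.40 against 0.35 to 0.80 on the arrays before weaning. The 18S controls were highest on day 24, and with their level as a covariate 14 members rose and 1 fell, with a members' median of 0.36. In the higher hybridization group alone 20 rose and 1 fell, with a median of 0.38. Over all 8622 genes 1717 rose and 1460 fell with the 18S covariate, with a median of 0.08. The share of members that rose was then near that of all genes. In the higher hybridization group alone 1733 of all genes rose and 1778 fell, with a median of 0.03. The members' median less that of all genes was 0.28 with the 18S covariate and 0.35 in that group, against 0.29 in the main fit. Cox7a1, Uqcrfs1, Ndufb6, Atp5j, Atp5l and Cox6b2 kept their calls in this step under each alternative run.

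**Figure D4:**
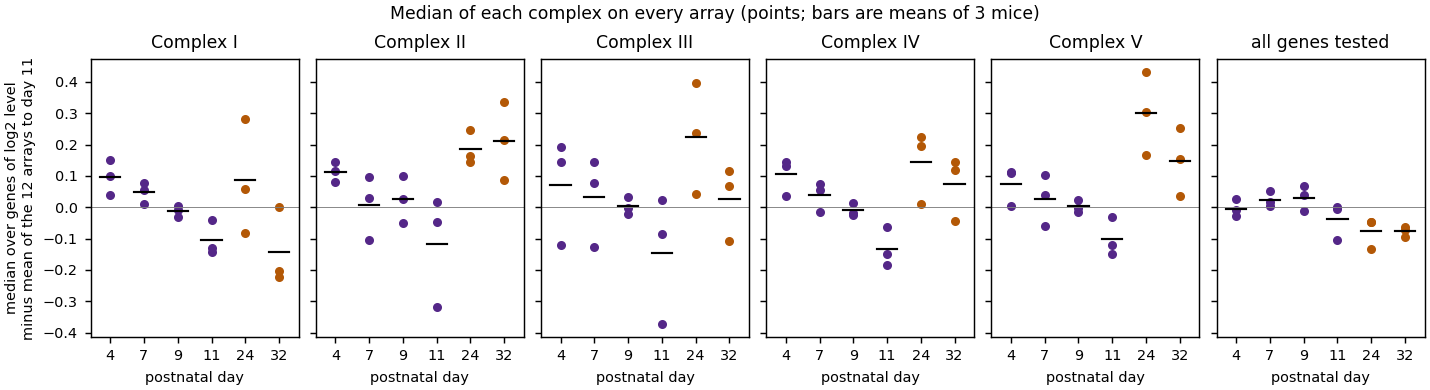
Median over the tested subunits of each complex, and over all genes tested, of the log2 level minus its mean on the 12 arrays to day 11 (y axis), for each array by postnatal day (x axis), with bars at the mean of 3 mice. Complex V lies at -0.15 to 0.11 before and 0.04 to 0.43 after weaning, complex I at -0.14 to 0.15 and -0.22 to 0.28, and complexes I, IV and V spread most on day 24.

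From day 24 to day 32, 60 of 73 members had a negative difference, with a median of -0.13, where 51.4% of all genes were negative with a median of -0.01. The members' median was -0.06, with 54 negative, without day 24 replicate 3 and -0.22 without day 24 replicate 1. In limma's test 0 rose and 3 fell, against 6.09% and 6.23% of all genes. At an unadjusted p below 0.05 the counts were 2 and 20. These were 2.74% and 27.4% of the members, against 13.9% higher and 13.9% lower of all genes. Those that fell were Cox7a1 (-0.72 ± 0.14, adjusted p = 0.00243), Cox7a2l (-0.45 ± 0.13, 0.0315) and Ndufb5 (-0.37 ± 0.10, 0.018), an accessory subunit of the membrane arm that had risen by 0.30 ± 0.10 in the step before. A second Ndufb5 probe set had no call in either step and was at -0.01 in this one, and the other 2 of Cox7a2l, at -0.25 and -0.32, had none here. The number that fell ranged from 1 to 6 when single arrays were left out. These steps share arrays, with day 11 in both of the earlier steps and day 24 in both of the later ones, so their opposite signs are not independent of each other.

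Means on the 2 days after weaning are given for 7 members called across the stages or from day 11 to day 24. The means of Ndufs1 and Sdha went from 8.72 and 10.58 on day 24 to 9.03 and 10.76 on day 32. The means of Ndufb9 and Atp5j2 had their high point on day 24. Those of Ndufa3, Cox7a2l and Ndufa7 were lower again on day 32 (10.74, 9.86 and 9.60) than on day 24 (11.05, 10.31 and 9.81). Of these steps from day 24 to day 32 the one of Cox7a2l passed the test.

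**Figure D5:**
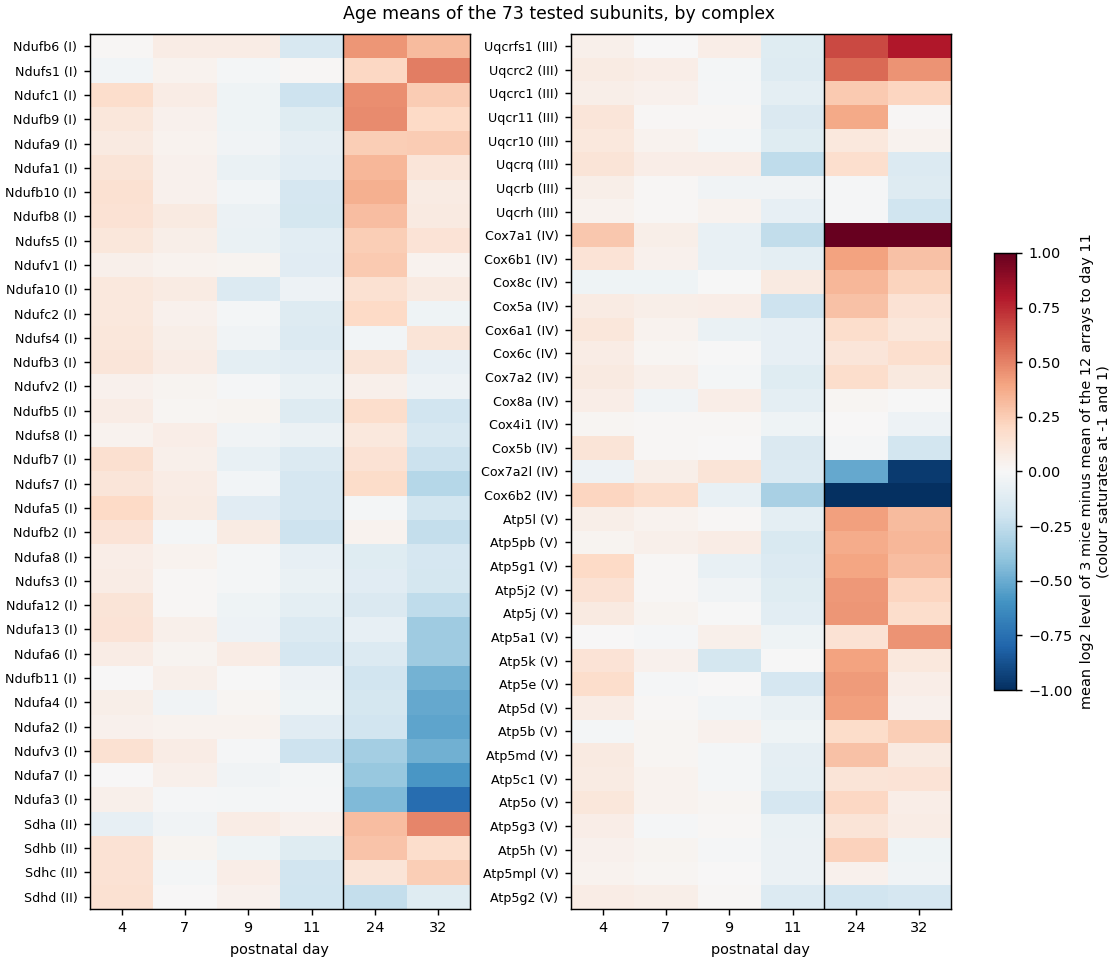
Mean log2 level of 3 mice at each postnatal day (x axis) for the 73 tested subunits (y axis, by complex and stage difference), minus the mean of the 12 arrays to day 11, with red higher, blue lower and the colour saturated beyond -1 and 1. Most rows are pale blue on day 11, red rows of complexes III to V are darkest on day 24 or 32, and the falling rows of complex I are darkest on day 32.

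Genes of neighbouring pathways were counted in lists chosen with earlier results of these data known, and are read against the 31% higher and 41.8% lower of all genes tested. Of the tricarboxylic acid cycle and pyruvate dehydrogenase list, 16 of 18 rose across the stages and 1 fell, with a median of 0.34. Idh3a rose 2.19-fold (1.13 ± 0.13) and Cs, citrate synthase, 1.47-fold (0.55 ± 0.06), and Idh2 fell by 0.57 (± 0.09). The electron carriers and ubiquinone list gave 8 higher and 4 lower of 13, with a median of 0.30. In it Cycs, cytochrome c, rose 2.23-fold (1.15 ± 0.09) and Pdss2, which builds the ubiquinone tail, 1.99-fold (1.00 ± 0.09), while Coq4 fell by 0.58. Each of the named changes had an adjusted p below 0.05 in limma.

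The assembly factors gave 13 higher (36.1%) and 9 lower of 36, with a median of 0.11, so that the share higher was near that of all genes. Cox18, which serves complex IV, rose by 0.65 ± 0.11, and Atpaf2, an ATP synthase assembly factor, and Cox19 fell by 0.69 and 0.54. Among translocases and outer membrane proteins 7 rose and 1 fell of 13, with a median of 0.28, led by Slc25a5, the ATP/ADP carrier (0.80 ± 0.07). Phb2 rose by 0.53, Tomm20 fell by 0.86, and Atpif1, the ATP synthase inhibitor, was at -0.11 with no call (adjusted p = 0.132). Glycolysis gave 10 higher and 2 lower of 14, with a median of 0.40: Pfkp rose 2.52-fold, and Pfkm and Pfkl fell 1.93-fold and 1.92-fold.

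Of genes that maintain or transcribe mitochondrial DNA, 4 rose (40%) and 2 fell of 10, with a median of 0.09. Mterf3, Polrmt and Tfam rose by 0.68, 0.52 and 0.40, while Polg, the catalytic subunit of the mitochondrial DNA polymerase, fell 2.61-fold (-1.38 ± 0.08, adjusted p = 3.46e-11) and Ssbp1 fell by 0.53. Of the regulators 4 of 8 rose and the other 4 had no call, with a median of 0.17. The coactivator Ppargc1b and the receptor Esrra rose by 0.78 and 0.32, and Gabpa was at 0.01 (adjusted p = 0.942). Ppargc1a, at 4.85 to 5.67, and Nrf1, at 4.82 to 6.24, stayed below the filter.

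Some genes counted in these lists reached the filter only after weaning, so that they had to be higher to be tested, and no fold is given for them. They were Pcx (pyruvate carboxylase), at 4.64 to 5.58 before and 7.03 to 7.87 after weaning, Sco1 (a copper chaperone of complex IV), at 4.37 to 5.18 and 6.66 to 7.11, Hk2 (hexokinase), at 5.53 to 5.96 and 7.38 to 9.17, and Ppard (a nuclear receptor for fatty acids), at 4.87 to 5.48 and 7.65 to 8.81. Coq10a and Tfb1m reached it only before weaning. Without these 6 genes the counts higher and lower were 15 and 1 of 17 for the tricarboxylic acid cycle, 8 and 3 of 12 for the electron carriers, 12 and 9 of 35 for assembly, 9 and 2 of 13 for glycolysis, 4 and 2 of 9 for mitochondrial DNA and 3 and 0 of 7 for the regulators.

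RefSeq promoters, 250 bases before to 50 after the start on GRCm38.p6, were at hand for 66 of the 81 members, which lie on 19 chromosomes. Motifs were searched on both strands and are descriptions of letters only. The NRF1 core CGCATGCG was in 7 member promoters (10.6%), against 4.02% of 7034 promoters of tested genes and 1.91% of all 27025. It was found for Ndufa8, Uqcr11, Uqcrc1, Cox6a1, Atp5g2, Atp5k and Atp5l, in complexes I, III, IV and V. Its short form TGCGCA, which can overlap it, was in 17 (25.8%, against 14.9% and 8.06%). The YY1 core AAGATGGC was in 8 (12.1%, against 5.4% and 2.88%), 7 of them within the bases after the start. The GABP motif CCGGAAGT was in 5 (7.58%, against 8.94% and 4%) and the ERRA motif TCAAGGTCA in 2, Sdhd and Atp5g3 (3.03%, against 0.171% and 0.407%). Median GC content was 58.5% for members, 61.3% for tested genes and 52.7% for all.

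The paralogues that changed most are shown with their partners, as the 150 bases before the start, 5′ to 3′: Cox7a1 (chr7:30184021-30184170, plus strand), Cox7a2 (chr9:79759854-79760003, minus), Cox6b2 (chr7:4753095-4753244, minus) and Cox6b1 (chr7:30626115-30626264, minus). The Cox7a2 window lies inside its gene record (chr9:79755241-79771422), so that the start used is internal to the recorded gene. None of the windows held a motif searched, so no letter is capital.
Cox7a1: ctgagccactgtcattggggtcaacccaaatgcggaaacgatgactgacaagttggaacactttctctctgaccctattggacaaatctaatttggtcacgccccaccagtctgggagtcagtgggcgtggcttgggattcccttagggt
Cox7a2: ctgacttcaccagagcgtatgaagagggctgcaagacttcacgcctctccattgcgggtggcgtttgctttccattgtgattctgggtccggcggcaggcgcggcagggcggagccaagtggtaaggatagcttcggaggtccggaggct
Cox6b2: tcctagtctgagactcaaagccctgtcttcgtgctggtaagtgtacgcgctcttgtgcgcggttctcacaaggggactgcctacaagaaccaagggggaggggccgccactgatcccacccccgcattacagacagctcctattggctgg
Cox6b1: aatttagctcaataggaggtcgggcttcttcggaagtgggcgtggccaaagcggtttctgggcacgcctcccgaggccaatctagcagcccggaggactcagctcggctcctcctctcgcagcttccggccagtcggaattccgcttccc

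Of the members, 39 had more than 1 probe set past the filter. Across the stages all probe sets of 22 of these gave the same call, 17 were called in some probe sets and not in others, and 0 were called in opposite directions. For day 24 minus day 11 the numbers were 20, 19 and 0. Atp5a1 showed the widest range, with 0.30 and 0.24 from its bright probe sets and 1.41 from another with a mean level of 6.24.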

How the data were processed

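The authors' deposited table gives 1 log2 expression value per probe set and array, which the submitters' processing notes credit to RMA, with no version given in the sources used here; RMA corrects background, normalizes between arrays and summarises probes. It holds 45101 probe sets. The platform annotation named 34958 with 1 symbol and 932 with several, which were left out. Values near the array medians cannot be told from background, since no detection calls were used here.

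The probe set with the highest mean stood for a gene, kept at log2 6 or more on at least 3 arrays. limma 3.58.1 (R 4.3.3; lmFit, eBayes) fitted age as a factor with 6 levels on 18 arrays, with 12 residual degrees of freedom; p-values were Benjamini-Hochberg adjusted over 8622 genes and called below 0.05. Complexes are described by counts and medians. The script was tested on simulated data. The 10 paralogue pairs had exact permutation tests.

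Members and gene lists were chosen with earlier results of these data known. Named with full statistics were, per comparison and complex, up to 3 called members each way with the largest change and the paralogues; of pathway lists, up to 2 each way and a few regulators. Symbols were matched exactly, else by RefSeq synonym. Alternatives changed the filter, the probe set rule, the normalization, the eBayes options, the weights, the arrays used and covariates. Of genes that reached the filter in both stages, hepatocyte gave 1 lower of 1, pancreatic acinar 1 higher of 2 and macrophage 1 lower of 3. The only erythroid gene tested, 1 hepatocyte gene and 1 macrophage gene reached it only before weaning, and 1 macrophage gene only after it. No call is given for these. The sources used here give no day of weaning, array model or scan date.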

Additional observations from a re-analysis of the deposited data

How the results depend on the processing

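No paired analysis was possible because the groups compared share fewer than 2 animal numbers in the labels: 1 number stands in the titles of a day 7 and a day 9 array and none is shared otherwise. Of the 32 members that rose across the stages, 9 kept the call under each alternative run (Ndufb6, Ndufs1, Sdha, Uqcrfs1, Cox7a1, Atp5a1, Atp5g1, Atp5j and Atp5l), and of the 12 that fell 7 did (Ndufa2, Ndufa3, Ndufa7, Ndufb11, Ndufv3, Cox6b2 and Cox7a2l). The dim isoforms lay near background, where RMA values understate a change, and 3 mice an age limit the precision of the steps between ages. The cause of the changes below was not tested.

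Leaving out 1 array at a time gave 24 to 36 members higher and 12 to 16 lower across the stages, 23 to 37 higher and 3 to 4 lower from day 11 to day 24, 0 to 2 lower from day 4 to day 11 and 1 to 6 lower from day 24 to day 32. The medians for day 24 minus day 11 then ranged from 0.090 to 0.29 for complex I, 0.22 to 0.51 for complex III, 0.19 to 0.27 for complex IV and 0.34 to 0.49 for complex V. Without both day 24 replicate 3 and day 11 replicate 1, 19 members rose in that step and the medians of complexes III, IV and V were 0.13, 0.14 and 0.28. The ratio of Ndufa4l2 to Ndufa4 ranged from 0.15 to 0.24.

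With the 18S level as a covariate 13 members rose across the stages, 14 rose and 1 fell from day 11 to day 24, 1 fell from day 24 to day 32, 0 fell from day 4 to day 11 and the F test called 19. The medians across the stages were then 0.32 (complex II) and 0.34 (III), and from day 11 to day 24 they were 0.55 (II), 0.67 (III) and 0.30 (IV). Ndufa4 changed sign across the stages, at 0.000339. In the higher hybridization group alone 20 members rose and 1 fell from day 11 to day 24, with medians of 0.46 (II), 0.60 (III) and 0.51 (V), 0 fell from day 4 to day 11 and 1 from day 24 to day 32. With that group as a block 4 fell from day 4 to day 11 and 6 from day 24 to day 32, and the complex III median from day 11 to day 24 was 0.55. With only the ages compared, 21 rose from day 11 to day 24, 0 fell from day 4 to day 11 and 1 from day 24 to day 32. With the Xist level as a covariate 0 fell from day 4 to day 11.

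Array weights gave 56 members in the F test, 6 lower from day 4 to day 11 and 5 lower from day 24 to day 32. That last number was 10 with quantile normalization, 5 with a median shift, 8 with the eBayes trend and 6 with a filter at log2 8. Without a filter 1 member rose from day 24 to day 32 and 0 fell from day 4 to day 11. Cyclic loess gave medians across the stages of 0.23 (IV) and 0.32 (V). With probe sets averaged within genes, Ndufv2 (0.16) and Uqcrb (0.18) across the stages and Sdhd (0.34) from day 11 to day 24 turned to a called rise, the complex V median from day 11 to day 24 was 0.48, and 1 member fell from day 24 to day 32.

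Within the arrays of low Xist (5 after, 3 before weaning) and of high Xist (1 after, 9 before) no pair passed the adjusted exact permutation test, and in the second set none could. The log2 ratio changes there, low then high, were 0.18 and 0.32 for Cox4i2, -1.43 and -1.95 for Cox6b2, 2.28 and 2.50 for Cox7a1, -0.78 and -0.98 for Cox7a2l, 1.10 and 0.92 for Cox8b, 0.51 and 0.58 for Atp5g1 over Atp5g2, 0.23 and 0.33 for Atp5g1 over Atp5g3, and -0.28 and -0.26 for Atp5g2 over Atp5g3. The ratio of Ndufa4l2 to Ndufa4 passed with quantile normalization, at 0.30.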
